A study of Mus musculus with 9 samples.

Results

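Polycomb repressive complex 1 (PRC1) is described here through the 9 genes Ring1, Rnf2, Bmi1, Pcgf2, Pcgf5, Cbx2, Cbx7, Cbx8 and Phc1, which were taken by gene symbol from the 56980 gene rows of the count table. The 9 genes encode subunits of 4 kinds, and all 9 were among the 17001 genes that passed the filter on low counts. Every PRC1 complex holds 1 RING subunit that places ubiquitin on histone H2A and 1 PCGF subunit that pairs with it and sets which form of the complex is built. The canonical forms add a CBX subunit, whose chromodomain reads the methyl mark that EZH2, the enzyme of Polycomb repressive complex 2, leaves on histone H3, and a PHC subunit, which clusters complexes on chromatin. Variant forms lack CBX and PHC and carry RYBP or YAF2 instead. In oligodendrocyte progenitor cells (OPCs), the dividing precursors of myelin-forming cells, Polycomb complexes are known for keeping developmental and cell-cycle inhibitor genes silent.

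Polyadenylated RNA was sequenced from cultured primary mouse OPC lines, in 9 libraries that formed 3 groups of 3. All cells were Trp53 -/- and all were kept in medium with 10 ng/mL PDGF-AA. BB-p53n EZH2i cells expressed the growth factor PDGF-BB and received 5 µM tazemetostat, an EZH2 inhibitor, for 48 h. BB-p53n DMSO cells expressed PDGF-BB and received the vehicle DMSO, and p53n cells had neither PDGF-BB nor, by their labels, vehicle, so PDGF-BB and vehicle went together. The labels give neither the construct behind PDGF-BB, nor the age of the mice, nor the number of lines. It is not stated whether replicate libraries were separate cultures. The p-values below therefore speak only to the spread among libraries of the same group, part or all of which may be technical. For the main tests of fold change that spread was estimated over all 3 groups together. Each of those p-values thus also carries the spread of the group not compared. In RNA from whole cultures, fewer cells of a type and less RNA per cell cannot be told apart.

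Total counts were 19471768 to 34557109 per library, of which the 9 genes held 7486 to 14643. Mitochondrial genes took 1.34% to 1.54% of the counts in BB-p53n EZH2i, 2.44% to 2.62% in BB-p53n DMSO and 4.46% to 5.76% in p53n. All 8 OPC markers had counts, and their summed level was 4669 to 4979 CPM (counts relative to library size, scaled by TMM) in BB-p53n EZH2i, 6415 to 6436 CPM in BB-p53n DMSO and 6639 to 7053 CPM in p53n. Sox10, the lineage factor of oligodendrocytes, averaged only 2.21 ± 0.29 CPM in p53n (SD, n = 3), against 299 ± 16.4 CPM in BB-p53n DMSO and 459 ± 9.60 CPM in BB-p53n EZH2i. Cspg4, Olig1 and Olig2 also averaged lowest in p53n and highest in BB-p53n EZH2i. Pdgfra, Ptprz1, Lhfpl3 and Pcdh15 went the other way, highest in p53n and lowest in BB-p53n EZH2i. Ptprz1 averaged 625, 2308 and 2684 CPM in BB-p53n EZH2i, BB-p53n DMSO and p53n, and Pdgfra 514, 980 and 1492 CPM. Markers of differentiating oligodendrocytes summed to 296 to 327 CPM in BB-p53n EZH2i, 307 to 339 CPM in BB-p53n DMSO and 1238 to 1319 CPM in p53n. Of these sums Bcas1 alone averaged 301, 306 and 1112 CPM in that order. Astrocyte markers summed to 271 to 291 CPM, with 1 of 5 at 0, in BB-p53n EZH2i, to 377 to 405 CPM in BB-p53n DMSO and to 595 to 710.2 CPM in p53n. Of these sums Slc1a3 alone averaged 281, 389 and 620 CPM in that order. Neuron markers summed to 114 to 126 CPM in BB-p53n EZH2i, 94.1 to 96.5 CPM in BB-p53n DMSO and 100 to 117 CPM in p53n, while the microglia, endothelium and mural lists each stayed below 3 CPM. Among the neuron markers, Tubb3 (85.4 against 37.1 CPM) and Rbfox3 averaged higher with the inhibitor than with vehicle. Syt1 (27.3 against 48.2 CPM) and Snap25 averaged lower. Xist, the RNA that coats an inactive X chromosome, was at 2.82 to 17.4 CPM in BB-p53n EZH2i, 46.2 to 65.0 CPM in BB-p53n DMSO and 2777 to 3101 CPM in p53n. Of the Y chromosome, 4 genes (Uty, Kdm5d, Ddx3y and Eif2s3y) were at 2.50 to 17.9 CPM in BB-p53n EZH2i, 21.3 to 55.1 CPM in BB-p53n DMSO and 0.21 to 0.93 CPM in p53n. These X- and Y-linked levels differ between the PDGF-BB and the p53n cultures. In every comparison with p53n, a difference in the origin of the cultures and PDGF-BB thus cannot be told apart. The EZH2 inhibition comparison is not free of such a difference either. Xist and each of the 4 Y genes lay lower with the inhibitor than with vehicle, and the ranges of no gene overlapped. Whether this drop came from the inhibitor or from a difference between the cultures was not tested. The part of this drop and of the other differences in the PRC1 results was not tested.

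Promoter sequences from RefSeq (GRCm38.p6, 250 bases before to 50 after the start of transcription, read on the gene's strand) were matched to 8 of the 9 genes, and Cbx2 had no entry. Those of Bmi1 and Pcgf2 and of both RING genes are shown, because each pair are paralogues that fill the same place in the complex and had log2 fold changes of opposite sign after EZH2 inhibition as counted. Capitals mark CACGTG, the E-box letters, which read the same on both strands, and GCCATTTT, the reverse strand of the YY1-type letters AANATGGC.
Bmi1 chr2:18676768-18677067 +: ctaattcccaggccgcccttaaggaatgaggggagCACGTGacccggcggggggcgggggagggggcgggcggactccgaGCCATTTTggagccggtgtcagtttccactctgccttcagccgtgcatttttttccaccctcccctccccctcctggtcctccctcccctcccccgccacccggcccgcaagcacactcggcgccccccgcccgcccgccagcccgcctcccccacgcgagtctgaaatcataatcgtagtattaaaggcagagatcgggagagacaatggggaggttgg
Pcgf2 chr11:97699599-97699898 -: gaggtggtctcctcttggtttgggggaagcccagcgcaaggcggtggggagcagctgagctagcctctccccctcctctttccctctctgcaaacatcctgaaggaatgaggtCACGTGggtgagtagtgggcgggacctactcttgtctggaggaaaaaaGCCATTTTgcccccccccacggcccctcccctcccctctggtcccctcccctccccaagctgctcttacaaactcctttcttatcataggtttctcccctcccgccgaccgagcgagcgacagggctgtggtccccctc
Rnf2 chr1:151500942-151501241 -: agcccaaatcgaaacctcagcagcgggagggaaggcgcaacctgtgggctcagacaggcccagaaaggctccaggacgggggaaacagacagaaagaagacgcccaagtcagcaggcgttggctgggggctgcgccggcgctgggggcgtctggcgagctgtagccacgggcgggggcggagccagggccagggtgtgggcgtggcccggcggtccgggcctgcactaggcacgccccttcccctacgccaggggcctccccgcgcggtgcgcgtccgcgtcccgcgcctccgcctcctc
Ring1 chr17:34024631-34024930 -: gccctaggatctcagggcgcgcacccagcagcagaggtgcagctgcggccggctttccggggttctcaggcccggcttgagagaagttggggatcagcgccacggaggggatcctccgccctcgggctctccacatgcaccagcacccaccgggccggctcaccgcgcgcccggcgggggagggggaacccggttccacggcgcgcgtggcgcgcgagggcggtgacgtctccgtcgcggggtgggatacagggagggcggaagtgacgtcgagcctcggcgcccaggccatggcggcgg

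The promoters of Bmi1 and Pcgf2 each held both sets of letters once. The E-box letters began at position -215 in Bmi1 and -137 in Pcgf2, and the YY1-type letters at -170 and -89, counted from the start site. E-box letters were present in 3 of the 8 genes, the third being Cbx8 at -98, and in 9.9% of the 11299 promoters of tested genes. YY1-type letters were present in 2 of the 8 and in 8.3% of those promoters. The E2F-type letters TTTCCCGC, TTTGGCGC and TTTCGCGC (3.5% of promoters) and the NRF1-type letters GCATGCGC (5.2%), searched on both strands, were in none of the 8, and no 2 matches overlapped. The Ring1 promoter held 37 CpG and that of Rnf2 30, against 23 in Bmi1, 10 in Pcgf2 and a median of 21 over all promoters. A match of letters is a description of the window and not a measured binding site.

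The order of the subunits differed between the groups, and it also differed between both scalings. Per kilobase of exon and as counted, Phc1 was highest in BB-p53n EZH2i at 24.7 CPM per kb, followed by Cbx2 at 20.2, with Bmi1 at 13.4 and Rnf2 at 7.46. In BB-p53n DMSO the highest were Bmi1 at 28.6, Rnf2 at 19.9 and Phc1 at 16.0 CPM per kb, and in p53n Rnf2 at 16.7, Bmi1 at 16.6 and Phc1 at 13.3 CPM per kb. The lowest place was held by Pcgf5 in BB-p53n EZH2i (1.30 CPM per kb), by Cbx7 in BB-p53n DMSO (1.81) and by Pcgf5 in p53n (1.21). Neighbours in the order whose libraries overlapped, and so did not differ beyond their spread, were in BB-p53n EZH2i Pcgf2 (13.4), Bmi1, Cbx8 (9.99), Rnf2 and Ring1 (5.77) as a chain, and Cbx7 (1.68) with Pcgf5. In BB-p53n DMSO they were Pcgf2 (9.74) with Cbx2 (9.48). In p53n they were Rnf2 with Bmi1, and Cbx8 (4.85) with Ring1 (4.79). With the trend on GC content and length removed, which is described with the comparisons, Bmi1 and Phc1 overlapped at the top in BB-p53n EZH2i (22.5 and 20.04 CPM per kb), ahead of Cbx2 (14.2) and Rnf2 (13.5), which overlapped too. In BB-p53n DMSO Bmi1 (23.4) then stood above Phc1 (17.0) and Rnf2 (16.1), and in p53n Phc1 (15.5) above Pcgf2 (11.9), Bmi1 (11.7) and Rnf2 (11.2).

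**Figure D1:**
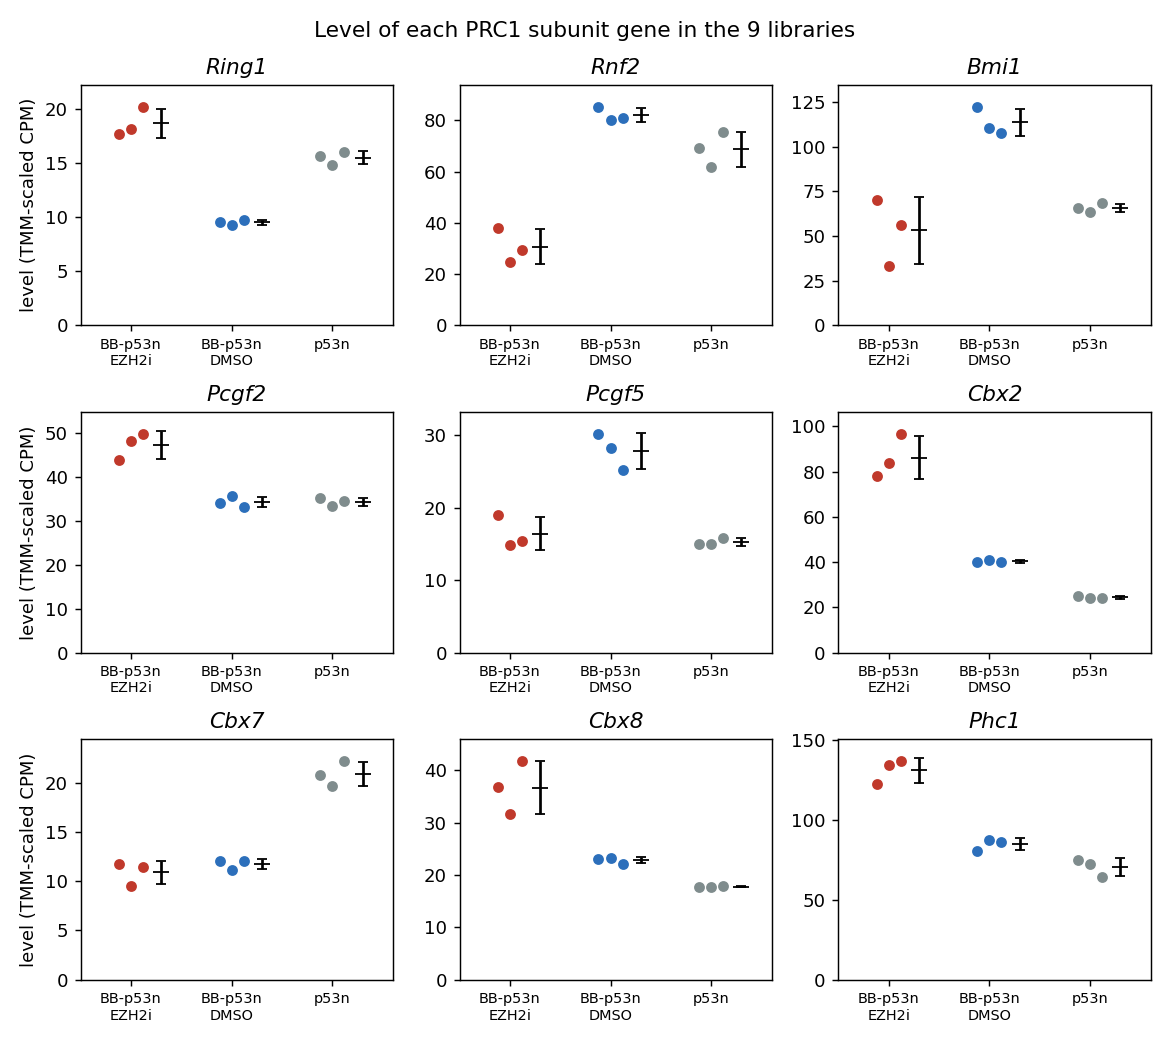
Level of each of the 9 genes in TMM-scaled CPM, on linear axes that start at 0, with 1 point per library, the mean and SD of 3 libraries beside the points, and the groups BB-p53n EZH2i, BB-p53n DMSO and p53n from left to right. Rnf2, Bmi1 and Pcgf5 are highest in BB-p53n DMSO, Cbx2, Cbx8 and Phc1 are highest in BB-p53n EZH2i and lowest in p53n, and Cbx7 is highest in p53n at 20.9 CPM on average.

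PDGF-BB-expressing cells differed from p53n cells in 7 of the 9 genes, 5 higher and 2 lower, by edgeR's quasi-likelihood test with Benjamini-Hochberg adjustment over all tested genes at 0.05. Of all tested genes 69.3% were called in this comparison, 35.3% higher and 34% lower, so the count is near the background. For 8 of the 9 genes, against 76.1% of all genes, no library of BB-p53n DMSO fell within the range of p53n. The median log2 fold change was 0.26 over the 9 genes and -0.02 over all genes. After EZH2 inhibition, 8 of the 9 genes were called, 5 higher and 3 lower, against 72.9% of all genes (37.3% higher, 35.6% lower), with no overlap in 8 of 9 against 75.3% and a median of 0.46 against 0.02. EZH2-inhibited PDGF-BB cells differed from p53n cells in 7 of the 9 genes, 5 higher and 2 lower, against 82% of all genes (40.3% higher, 41.7% lower), with no overlap in 7 of 9 against 82.2% and a median of 0.27 against -0.04. BB-p53n DMSO libraries enter both of the first comparisons and p53n libraries the first and the last, so the 3 sets of values are not independent.

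In these libraries the fold change after EZH2 inhibition moved with the GC content of a gene's transcript, with a Spearman correlation of 0.73 across 12786 genes, which are not independent replicates; across the same genes it was 0.14 for PDGF-BB. The members span that range. Rnf2 (39.5% GC), Bmi1 (40.2%) and Pcgf5 (40.4%) lay at or below the 8.1 percentile of tested genes, whereas Phc1 (53.1%), Pcgf2 (54.0%), Cbx8 (54.9%), Cbx7 (56.4%), Ring1 (56.9%) and Cbx2 (57.6%) lay at or above the 69.6 percentile. Each comparison was therefore also fitted after the trend of every library on GC content and exon length was removed. In that fit 5 of 9 genes were called after EZH2 inhibition, 3 higher and 2 lower, against 57.4% of all genes (28.7% higher, 28.7% lower). For PDGF-BB 7 of 9 were called, 5 higher and 2 lower, against 71.7% of all genes (33% higher, 38.7% lower). For both together 9 of 9 were called, 6 higher and 3 lower, against 78.3% of all genes (36.2% higher, 42.1% lower). The medians over the 9 genes and over all genes were then 0.03 and -0.01 after EZH2 inhibition. They were 0.26 and -0.09 for PDGF-BB, and 0.29 and -0.11 for both together. For the 9 genes the log2 fold change with the trend removed is given beside the one as counted. Whether the trend arose in the cells or in library preparation was not tested.

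**Figure D2:**
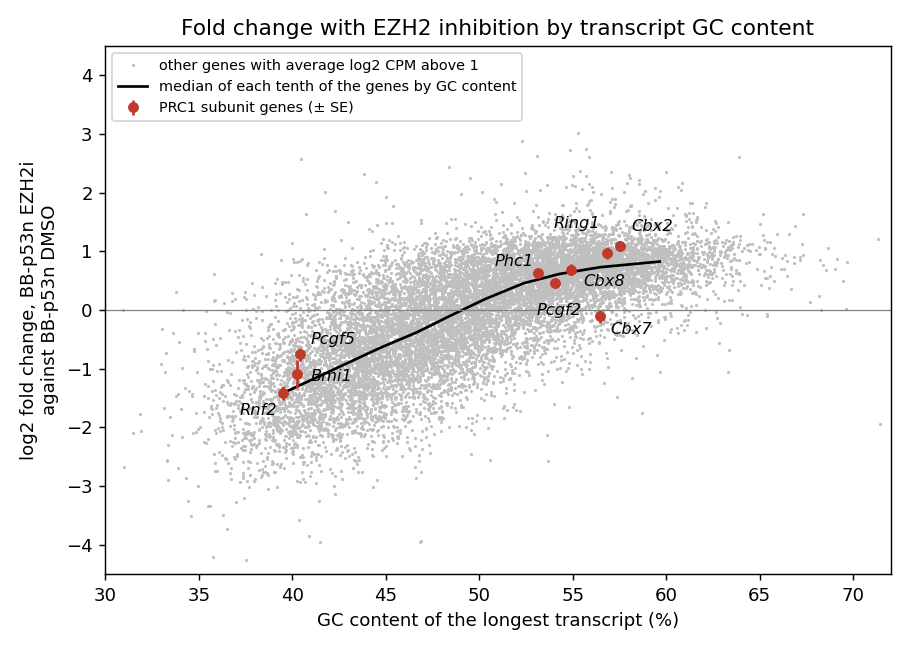
Log2 fold change of BB-p53n EZH2i over BB-p53n DMSO against GC content of the longest transcript in percent, with 1 grey point per gene of average log2 CPM above 1, a line through medians over bins of GC content, and the 9 PRC1 genes in red with their SE. The 3 members near 40% GC lie below 0, and 5 of the 6 members with more GC lie above 0, with Cbx7 at -0.10.

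The RING genes encode the ubiquitin ligases of the complex, and as counted the pair had log2 fold changes of opposite sign in the PDGF-BB and EZH2 inhibition comparisons, of which the PDGF-BB value of Rnf2 missed the threshold. Ring1 (chr17:34239766-34243654, minus strand, GRCm39) had 17.7, 18.2 and 20.2 CPM in BB-p53n EZH2i, 9.53, 9.27 and 9.78 CPM in BB-p53n DMSO, and 15.7, 14.8 and 16.1 CPM in p53n. The BB-p53n DMSO libraries were the lowest and overlapped neither other group. Ring1 fell in BB-p53n DMSO by 0.71 on the log2 scale against p53n (SE 0.10, adjusted p = 4.4e-06), and by 0.81 with the trend removed (adjusted p = 1.5e-07). EZH2-inhibited cells had 1.96-fold more Ring1 RNA than vehicle cells, a log2 fold change of 0.97 (SE 0.10, adjusted p = 4.4e-08), but with the trend removed the value was 0.19 (adjusted p = 0.0941). BB-p53n EZH2i exceeded p53n by 0.27 (adjusted p = 0.0207), a call lost without BB-p53n EZH2i replicate 3 (adjusted p = 0.0635) and without p53n replicate 2 (adjusted p = 0.0641), and with the trend removed the value was -0.61 (adjusted p = 4.5e-06).

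Rnf2, which encodes the other RING ligase (RING1B) and is the main one in embryonic stem cells, lies on chr1:151333755-151376706, minus strand. It had 38.1, 24.7 and 29.6 CPM in BB-p53n EZH2i, 85.3, 80.1 and 81.1 CPM in BB-p53n DMSO, and 69.2, 61.7 and 75.4 CPM in p53n. All BB-p53n DMSO libraries were above all p53n libraries, and the 3 EZH2i libraries were below all 6 others. For PDGF-BB the log2 fold change of 0.26 (SE 0.12, adjusted p = 0.0689) missed the threshold. It was called with the trend removed (0.53, adjusted p = 1.8e-07) and without p53n replicate 3 (0.41, adjusted p = 0.0131). Rnf2 fell 2.66-fold after EZH2 inhibition, by 1.41 on the log2 scale (SE 0.12, adjusted p = 1.3e-07), and with the trend removed by 0.25 (adjusted p = 0.00293). Between BB-p53n EZH2i and p53n the value was -1.15 (adjusted p = 8.2e-07) as counted and 0.27 with the trend removed (adjusted p = 0.000995).

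Rnf2 overlapped exons of Trmt1l on the opposite strand over 158 bases, 3.83% of its exon length, so reads there cannot be told apart. The overlaps of Cbx7 with Apobec3 (1.54%) and of Pcgf5 with F530104D19Rik (0.475%) were smaller, and the other 6 genes had none.

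PCGF subunits decide which complex a RING ligase joins, and Bmi1 and Pcgf2 build the canonical forms. Bmi1 (chr2:18681829-18691440, plus strand), the best known PCGF gene for repression of Cdkn2a and for self-renewal, had 70.2, 33.4 and 56.0 CPM in BB-p53n EZH2i, 122, 111 and 107.9 CPM in BB-p53n DMSO, and 65.6, 63.7 and 68.4 CPM in p53n. BB-p53n DMSO stood above all other libraries, while of the EZH2i libraries 1 lay just above and 2 below the p53n range. Bmi1 rose 1.72-fold with PDGF-BB, a log2 fold change of 0.79 (SE 0.23, adjusted p = 0.0173), and 1.00 with the trend removed (adjusted p = 4.6e-07). The call was lost without p53n replicate 2 (adjusted p = 0.0523). After EZH2 inhibition it fell by 1.09 (SE 0.23, adjusted p = 0.00369), against -0.05 with the trend removed (adjusted p = 0.724). BB-p53n EZH2i replicate 2 was the lowest library for Bmi1 and for Rnf2, and without it their log2 fold changes were -0.84 and -1.27, both still called. BB-p53n EZH2i and p53n did not pass the threshold as counted (-0.30, adjusted p = 0.266), whereas with the trend removed Bmi1 was 0.95 higher in BB-p53n EZH2i (adjusted p = 9.9e-07).

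Pcgf2 (chr11:97579649-97591323, minus strand), also called Mel18, is the close paralogue that takes the place of Bmi1 in canonical complexes. It had 43.8, 48.4 and 49.9 CPM in BB-p53n EZH2i, 34.1, 35.6 and 33.3 CPM in BB-p53n DMSO, and 35.2, 33.3 and 34.6 CPM in p53n. The last 2 groups overlapped and the EZH2i libraries lay above both. The PDGF-BB value was 0.00 (adjusted p = 0.988) as counted and -0.12 with the trend removed (adjusted p = 0.109), and after EZH2 inhibition Pcgf2 rose by 0.46 (SE 0.08, adjusted p = 2.2e-05) as counted, against -0.15 with the trend removed (adjusted p = 0.0659). In BB-p53n EZH2i against p53n it was 0.46 (adjusted p = 2.0e-05), and -0.27 with the trend removed (adjusted p = 0.00112).

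Pcgf5 (chr19:36325709-36438370, plus strand), a subunit of variant complexes, had 18.99, 14.9 and 15.5 CPM in BB-p53n EZH2i, 30.2, 28.2 and 25.2 CPM in BB-p53n DMSO, and 14.99, 14.99 and 15.9 CPM in p53n. The BB-p53n DMSO libraries lay above the rest, and the other 2 groups overlapped. Pcgf5 rose 1.82-fold with PDGF-BB, by 0.87 on the log2 scale (SE 0.11, adjusted p = 3.8e-07), and by 1.08 with the trend removed (adjusted p = 2.8e-10). After EZH2 inhibition it fell by 0.76 (SE 0.11, adjusted p = 2.2e-06), but with the trend removed the sign turned to 0.83 higher (adjusted p = 6.2e-08). Its exons total 12.6 kb, the longest of the 9. BB-p53n EZH2i and p53n did not differ past the threshold as counted (0.11, adjusted p = 0.36), and with the trend removed Pcgf5 was higher by 1.92 (adjusted p = 3.7e-14).

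CBX subunits read the methyl mark of PRC2, and the genes of the group did not move together. Cbx2 (chr11:118913788-118922096, plus strand) had 78.2, 83.8 and 96.6 CPM in BB-p53n EZH2i, 40.0, 41.1 and 40.0 CPM in BB-p53n DMSO, and 25.0, 24.0 and 24.3 CPM in p53n. The 3 groups did not overlap. It rose 1.65-fold with PDGF-BB (log2 0.72, SE 0.08, adjusted p = 1.5e-07) and 2.13-fold after EZH2 inhibition (1.09, SE 0.08, adjusted p = 2.3e-10). With the trend removed both rises were kept, at 0.63 (adjusted p = 3.3e-08) and 0.37 (adjusted p = 4.0e-05). Against p53n the EZH2i cells were 3.53-fold higher (1.82, adjusted p = 4.3e-14), and with the trend removed 1.00 higher (adjusted p = 9.2e-12).

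Cbx7 (chr15:79800008-79855320, minus strand), the main CBX gene of embryonic stem cells, had 11.7, 9.53 and 11.4 CPM in BB-p53n EZH2i, 12.1, 11.2 and 11.997 CPM in BB-p53n DMSO, and 20.8, 19.6 and 22.2 CPM in p53n. It was high in p53n, and the PDGF-BB groups overlapped each other. Cbx7 fell 1.78-fold with PDGF-BB, by 0.83 (SE 0.11, adjusted p = 7.1e-07), and by 0.94 with the trend removed (adjusted p = 7.4e-08). After EZH2 inhibition the value was -0.10 (SE 0.11, adjusted p = 0.415), and -0.63 with the trend removed (adjusted p = 6.5e-05). In BB-p53n EZH2i against p53n it fell by 0.93 (adjusted p = 1.3e-07), and by 1.57 with the trend removed (adjusted p = 2.5e-11).

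Cbx8 (chr11:118927131-118931795, minus strand), which sits beside Cbx2, had 36.7, 31.6 and 41.8 CPM in BB-p53n EZH2i, 23.1, 23.3 and 22.2 CPM in BB-p53n DMSO, and 17.8, 17.8 and 17.9 CPM in p53n. Again no library of one group reached another. It rose by 0.36 with PDGF-BB (SE 0.10, adjusted p = 0.00296), and by 0.26 with the trend removed (adjusted p = 0.0157). After EZH2 inhibition it rose by 0.69 (SE 0.10, adjusted p = 2.0e-06), whereas the value with the trend removed was 0.03 (adjusted p = 0.79). In BB-p53n EZH2i against p53n Cbx8 was higher by 1.05 as counted (adjusted p = 4.2e-09) and by 0.29 with the trend removed (adjusted p = 0.00683). The PDGF-BB calls of Cbx8 and of Phc1 were lost under upper-quartile scaling (adjusted p = 0.0542 and 0.177), which moved the median of all genes to -0.16.

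Phc1 (chr6:122294690-122317520, minus strand) encodes the subunit whose SAM domain lets complexes join into larger clusters. It had 122, 134 and 137 CPM in BB-p53n EZH2i, 80.6, 87.5 and 86.1 CPM in BB-p53n DMSO, and 75.2, 72.6 and 64.3 CPM in p53n. All 3 groups were separate, with p53n lowest. With PDGF-BB Phc1 rose by 0.26 (SE 0.07, adjusted p = 0.00421), and the value with the trend removed was 0.13 (adjusted p = 0.0604). After EZH2 inhibition Phc1 rose by 0.63 (SE 0.07, adjusted p = 1.9e-07), and by 0.24 with the trend removed (adjusted p = 0.00159). In BB-p53n EZH2i against p53n Phc1 was higher by 0.89 (adjusted p = 7.2e-10), and by 0.37 with the trend removed (adjusted p = 9.7e-06).

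**Figure D3:**
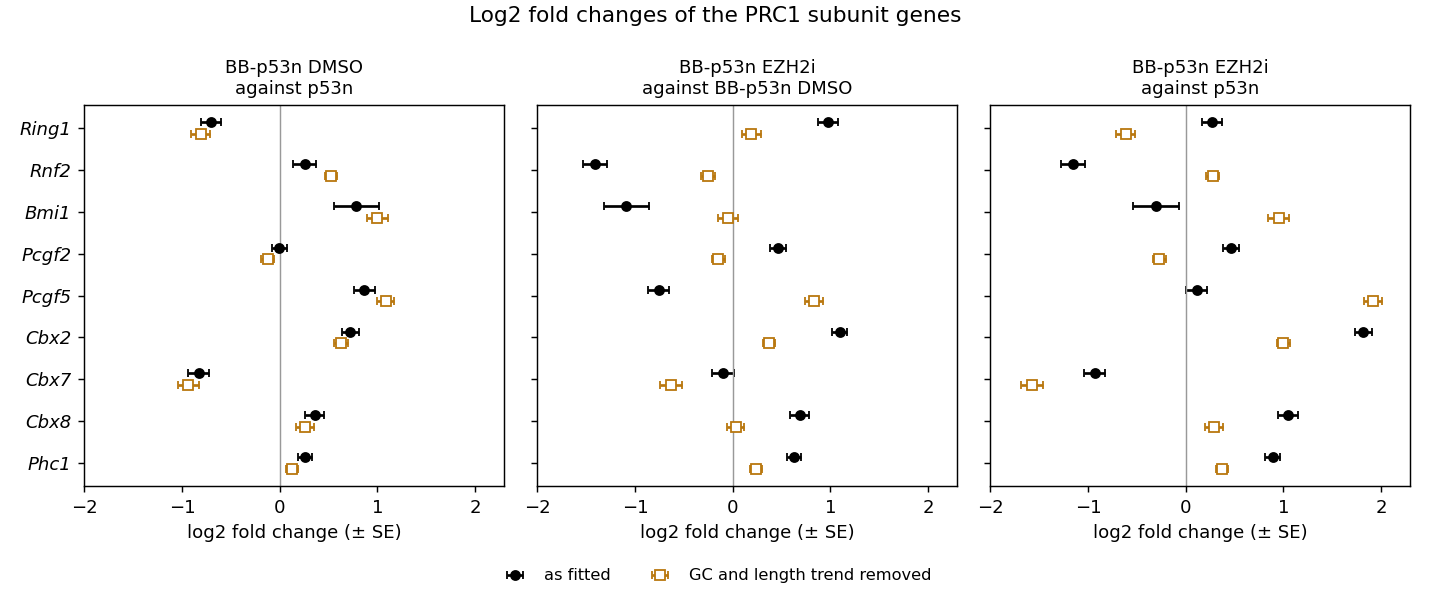
Log2 fold change with bars of 1 SE for the 9 genes, in 1 panel per comparison, with filled circles as fitted to the counts and open squares after removal of the trend on GC content and length. In the EZH2 inhibition panel Rnf2 lies at -1.41 (circle) and -0.25 (square) and Pcgf5 at -0.76 and 0.83, whereas for PDGF-BB the circle and square of Ring1, Cbx7 and Pcgf5 lie on the same side of 0.

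Within each paralogue group, shares of the summed counts per kilobase showed which member the cells carried most. Of the RING pair, Ring1 made up 44.0% ± 6.00 in BB-p53n EZH2i, 12.9% ± 0.43 in BB-p53n DMSO and 22.4% ± 1.04 in p53n (SD, n = 3 each), with Rnf2 as the rest. Of the PCGF members, Bmi1 held 46.6% ± 9.95 in BB-p53n EZH2i, 70.5% ± 1.29 in BB-p53n DMSO and 60.2% ± 0.62 in p53n. Pcgf2 held 48.7% ± 9.77, 24.1% ± 1.34 and 35.4% ± 0.69 in BB-p53n EZH2i, BB-p53n DMSO and p53n. Pcgf5 held the remaining 4.65%, 5.43% and 4.39%. As counted, Bmi1 was the leading PCGF transcript in every library without the inhibitor, while the EZH2i libraries of Bmi1 and Pcgf2 overlapped. With the trend removed the Bmi1 share was 63.4%, 65.2% and 48.1%, that of Pcgf2 28.4%, 30.3% and 48.8%, and that of Ring1 22.5%, 17.6% and 34.96% in BB-p53n EZH2i, BB-p53n DMSO and p53n, so Bmi1 did not lead in p53n on that scale.

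The CBX shares moved little with the trend, and these 3 genes have similar GC content (54.9% to 57.6%). Cbx7 held 5.28% ± 0.62 of CBX counts per kilobase in BB-p53n EZH2i, 10.3% ± 0.54 in BB-p53n DMSO and 23.3% ± 1.03 in p53n, against 5.67%, 9.98% and 22.7% with the trend removed. Cbx2 took 63.5% ± 2.64 in BB-p53n EZH2i, 54.1% ± 0.48 in BB-p53n DMSO and 41.6% ± 0.73 in p53n, against 62.6%, 54.7% and 42.1%. Cbx2 led in all 3 groups, and for both genes no library of one group reached another as counted. Exact two-sided permutation tests gave p = 0.1 for these shares, the smallest that 3 libraries against 3 allow, or 0.111 after Benjamini-Hochberg adjustment over 21 tests, so none could pass 0.05. Of the 3 CBX shares that of Cbx8 differed least between groups, at 31.3% ± 2.15 in BB-p53n EZH2i, 35.5% ± 0.50 in BB-p53n DMSO and 35.1% ± 0.61 in p53n, and its PDGF-BB difference had an exact permutation p of 0.4.

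**Figure D4:**
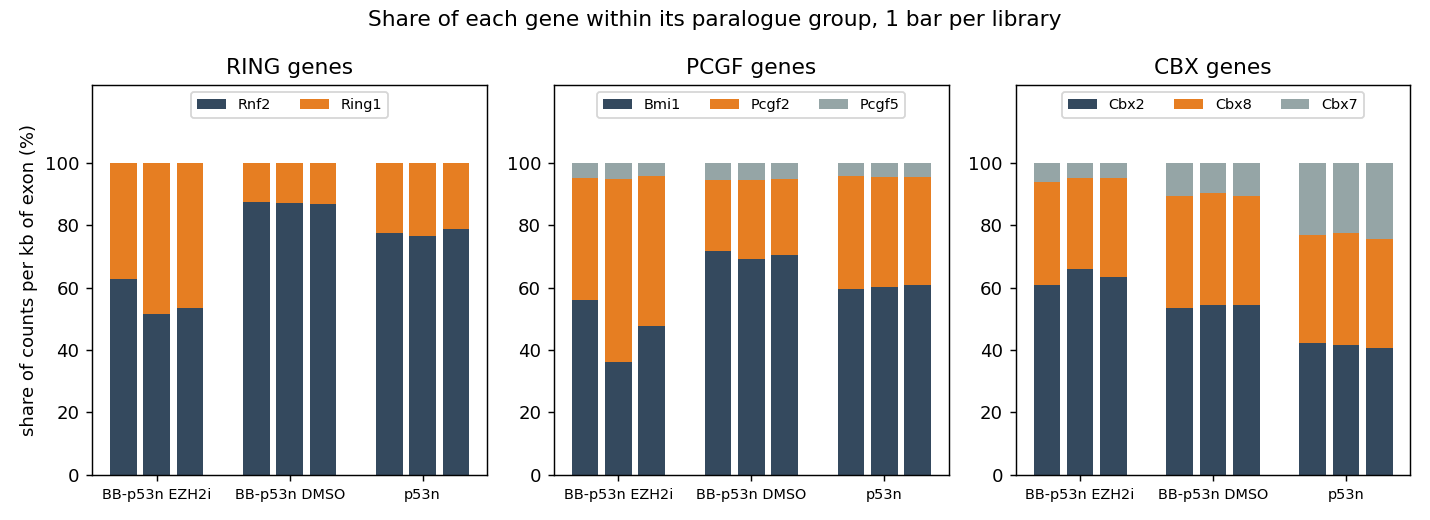
Share in percent of the counts per kilobase of exon within the RING, PCGF and CBX genes, with 1 stacked bar per library and the groups BB-p53n EZH2i, BB-p53n DMSO and p53n from left to right. The Cbx7 segment averages 5.28% in BB-p53n EZH2i, 10.3% in BB-p53n DMSO and 23.3% in p53n.

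Of the 9 genes, 3 lie on chromosome 11, whose 1301 tested genes stood 0.42 above the other autosomes in the PDGF-BB comparison (medians 0.38 and -0.05). As counted, that difference was 0.32 after EZH2 inhibition (medians 0.33 and 0.005) and 0.70 in both together (0.62 and -0.09). Within 5 Mb of Cbx2, 175 genes had a median PDGF-BB log2 fold change of 0.66, with 112 called higher and 23 lower, and Cbx2 at 0.72 was above 53.1% of them. The neighbours of Cbx8 had a median of 0.67, and Cbx8 at 0.36 was above 34.9% of them. The PDGF-BB rises of both genes thus lay within the bulk of their neighbours in that window. Towards the telomere from Cbx2, 77 genes had a median of 1.23, against 0.30 for the 98 towards the centromere. Pcgf2 lay among 199 neighbours with a median of 0.39 and was above 25.6% of them, at 0.00. After EZH2 inhibition Cbx2 was above 85.7% of its neighbours, whose median was 0.65, and Cbx7 above 20.5% of its 219 neighbours, at a median of 0.63. With the trend removed these neighbour medians after EZH2 inhibition were 0.02 around Cbx2 and 0.08 around Cbx7, and the PDGF-BB median around Cbx2 was 0.53. Bmi1 stood above 72.2% of 36 neighbours for PDGF-BB, whose median was 0.50 (0.59 with the trend removed), and Rnf2 above 74.6% of 59, at a median of -0.39. After EZH2 inhibition the median around Bmi1 was -1.08 within 5 Mb and -0.23 within 2 Mb, beside -1.09 for Bmi1. Copy number was not measured in these cultures, and its part in the levels on chromosome 11 was not tested.

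**Figure D5:**
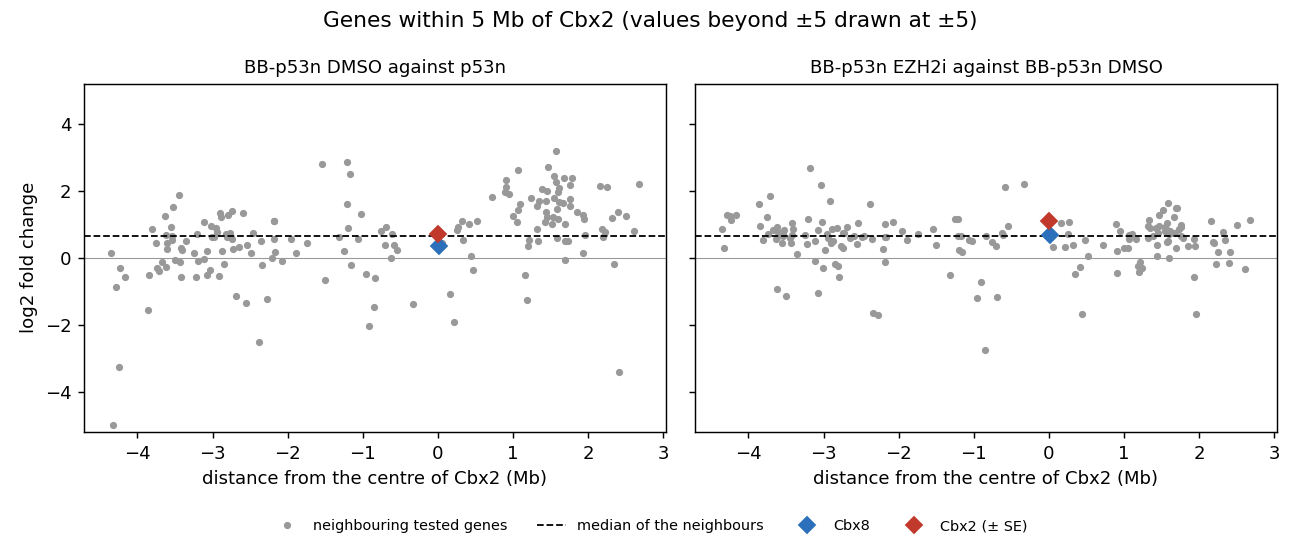
Log2 fold change of the tested genes within 5 Mb of Cbx2 against their distance from it in Mb, for BB-p53n DMSO over p53n and for BB-p53n EZH2i over BB-p53n DMSO, with grey points for neighbours, a dashed line at their median, and Cbx2 and Cbx8 as diamonds. In the PDGF-BB panel Cbx2 lies at 0.72 and the median at 0.66, with the points beyond 1 Mb to the right mostly above that line, and in the EZH2 inhibition panel Cbx2 lies at 1.09 and the median at 0.65.

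Among 20 other PRC1 subunit genes, 11 were called higher with PDGF-BB, 3 lower and 6 not, with a median of 0.20, beside 35.3% higher and 34% lower of all tested genes. With the trend removed these counts were 8, 4 and 8 (33% and 38.7% of all genes). After EZH2 inhibition 9 were higher, 8 lower and 3 not called, beside 37.3% and 35.6% of all genes, and 7, 8 and 5 with the trend removed (28.7% and 28.7%). In both together 11 were higher, 5 lower and 4 not called, beside 40.3% and 41.7% of all genes, and 8, 7 and 5 with the trend removed (36.2% and 42.1%).

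Among the remaining PCGF genes Pcgf1 fell by 1.12 with PDGF-BB (adjusted p = 4.5e-05), and by 1.32 with the trend removed. Pcgf3 was at 0.03 and Pcgf6 at -0.15, neither called in either fit. After EZH2 inhibition Pcgf1 rose by 1.00 (0.59 with the trend removed), and Pcgf3 was at -0.64 as counted and 0.33 with the trend removed. Pcgf6 was at -0.53 as counted and 0.07 with the trend removed, where it was not called. Cbx6 was at 0.24 with PDGF-BB (adjusted p = 0.00226), and at 0.12 with the trend removed, where it was not called (adjusted p = 0.0545). After EZH2 inhibition Cbx6 was at -0.06, not called, as counted and at -0.26 with the trend removed (adjusted p = 0.000378).

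The paralogues of Phc1 moved apart after EZH2 inhibition. Phc2 averaged 330 CPM in BB-p53n EZH2i, 157 CPM in BB-p53n DMSO and 139 CPM in p53n, a rise after EZH2 inhibition of 1.07 (0.50 with the trend removed). Its PDGF-BB value of 0.17 (adjusted p = 0.0469) was -0.013 with the trend removed (adjusted p = 0.844), so that call was lost. Phc3 averaged 32.1 CPM in BB-p53n EZH2i, 122 CPM in BB-p53n DMSO and 158 CPM in p53n, a fall of 1.92 after EZH2 inhibition (0.49 with the trend removed). With PDGF-BB Phc3 fell by 0.37 (adjusted p = 0.0026), and by 0.26 with the trend removed.

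As counted, the largest rises with PDGF-BB were in Auts2 and L3mbtl2, subunits of variant complexes. Auts2, a partner of the PCGF3 and PCGF5 complexes, rose by 1.35 (adjusted p = 2.6e-11; 1.36 with the trend removed), and L3mbtl2, part of the PCGF6 complex, by 1.32 (adjusted p = 4.2e-12; 1.21 with the trend removed). L3mbtl2 averaged 138 CPM in BB-p53n EZH2i, 89.0 CPM in BB-p53n DMSO and 35.7 CPM in p53n. The largest falls were in Pcgf1 and in Mga, a DNA-binding partner of the PCGF6 complex, at -0.52 (-0.37 with the trend removed).

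After EZH2 inhibition the largest rises as counted were in Phc2 and Pcgf1, and the largest falls in Mga, at -2.22 as counted and -0.70 with the trend removed, and in Phc3. That ranking holds as counted only, since with the trend removed Scmh1 (0.66) stood above Pcgf1 and Phc2, and Rybp (-0.62) below Phc3. In both together L3mbtl2 (1.95 as counted, 1.37 with the trend removed) and Phc2 (1.24 and 0.48) rose most as counted, and Mga (-2.74 and -1.07) and Phc3 (-2.29 and -0.75) fell most. With the trend removed Auts2 (1.505) and Scml2 (1.41) stood above L3mbtl2.

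Of 6 genes for enzymes or cofactors that take ubiquitin off histone H2A, 1 was called higher and 3 lower with PDGF-BB, in both fits. After EZH2 inhibition 2 were higher and 3 lower in both fits, but with different genes, and Usp16 was at -1.22 as counted and 0.46 with the trend removed (adjusted p = 0.000124). In both together 3 were higher and 3 lower as counted, and 0 higher and 1 lower with the trend removed. The shares of all tested genes called in each direction are those given for the 20 genes above. The largest change with PDGF-BB as counted was in Usp16 (-0.79, adjusted p = 1.2e-07; -0.46 with the trend removed). The largest change after EZH2 inhibition was in Mysm1, which averaged 9.38 CPM in BB-p53n EZH2i, 41.1 CPM in BB-p53n DMSO and 70.9 CPM in p53n and was at -2.12, or -0.72 with the trend removed. In both together Mysm1 was also the largest, at -2.90, or -1.31 with the trend removed.

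Cdkn2a, the cell-cycle inhibitor locus that PRC1 is best known to repress, averaged 76.4 ± 6.13 CPM in BB-p53n EZH2i, 65.7 ± 3.52 CPM in BB-p53n DMSO and 32.3 ± 0.21 CPM in p53n. It rose by 1.02 with PDGF-BB (adjusted p = 2.6e-10; 0.80 with the trend removed), in the same libraries in which Bmi1 was highest. After EZH2 inhibition it was at 0.22 (adjusted p = 0.0132) as counted and at -0.74 with the trend removed (adjusted p = 3.0e-09), so its sign differed between both fits. Cdkn2b, its neighbour, averaged 1.59 CPM in BB-p53n EZH2i, 2.298 CPM in BB-p53n DMSO and 2.02 CPM in p53n. It was not called for PDGF-BB or EZH2 inhibition as counted (adjusted p = 0.498 and 0.0534), and was at -1.41 after EZH2 inhibition with the trend removed (adjusted p = 4.1e-05).

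The genes whose centred log2 levels followed each member most closely over the 9 libraries were found among 11575 genes by Euclidean distance. They were Deaf1 for Ring1 (0.18), Ddx10 for Rnf2 (0.21), Alpk1 for Bmi1 (0.35), Atg7 for Pcgf2 (0.10), Seh1l for Pcgf5 (0.17), Tmem121 for Cbx2 (0.13), Wls for Cbx7 (0.12), Zdhhc18 for Cbx8 (0.16) and Taf12 for Phc1 (0.11). Bmi1 had the least close partner. Among the members, Cbx8 and Phc1 were closest at a distance of 0.40, Bmi1 and Pcgf5 stood at 0.85, Bmi1 and Rnf2 at 1.08, and Cbx2 and Rnf2 were farthest apart at 3.99. The points share libraries, depth and the GC trend, and these distances are a description.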

How the data were processed

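The authors deposited 1 table of raw counts of fragments per gene, without normalization. Per the file headers, featureCounts 1.6.3 counted over exons with mapping quality of at least 20 on Ensembl release 108 (GRCm39), with no strand option. The submitters' processing notes also name Trimmomatic and Subread, without settings. Symbols were found for 52073 of 56980 gene identifiers.

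All 9 libraries were fitted with edgeR 4.0.16 (R 4.3.3): filterByExpr, TMM, and the robust quasi-likelihood test with group as the only term, adjusted by Benjamini-Hochberg over 17001 genes at 0.05. PDGF-BB expression stands for BB-p53n DMSO over p53n, EZH2 inhibition for BB-p53n EZH2i over BB-p53n DMSO, and both together for BB-p53n EZH2i over p53n. Means are given with the SD of 3 libraries, in CPM scaled by TMM, and 3 counts corresponded to 0.0888 to 0.160 CPM, a floor that covers counting error only, as reads carried no molecular identifiers. For values with the trend removed, natural splines (5 degrees of freedom) of GC content and exon length were fitted in each library to genes with average log2 CPM above 1 and entered as offsets. GC content was known for 97.9% of tested genes. Libraries of a group differed by more than sampling noise (median chi-square per gene 1.39 to 4.22), so none was counted as a repeat. The scripts were tested on simulated counts.

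The 9 genes and all lists were chosen with earlier results of these data known. The named genes are the 9 members, the remaining paralogues, the 2 largest called rises and falls of the other PRC1 subunit genes in each comparison, the largest called change among the H2A deubiquitination genes, Cdkn2a and Cdkn2b, and the gene nearest to each member. Not every result this rule takes is reported here. Promoters are from RefSeq (GRCm38.p6).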

Additional observations from a re-analysis of the deposited data

How the results depend on the processing

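The number of PRC1 genes called moved by more than 1.5 times only after EZH2 inhibition, where it was 8 as counted but 5 once the trend was removed, with or without the replicate block. Leaving out each library in turn gave 6 to 8 called genes for PDGF-BB, 8 after EZH2 inhibition and 6 to 8 for both together. Replicate numbers were not used to pair libraries, as the labels do not say that they do. Correlations were taken across genes on each library's log2 CPM less the mean of its own group. Such deviations cancel out within a group, so these correlations are not independent. For EZH2 inhibition they were 0.34, 0.27 and 0.00 for same-numbered libraries, and -0.31 to 0.04 for differently numbered ones. For PDGF-BB these ranges were -0.12 to -0.00 and -0.11 to 0.13. Whether same-numbered BB-p53n libraries shared a batch was not tested. A replicate block gave 8, 8 and 7 called genes for PDGF-BB, EZH2 inhibition and both together.

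Directions turned as follows, and the cause was not tested. With the trend removed, EZH2 inhibition gave -0.15 for Pcgf2 and 0.83 for Pcgf5, and both together 0.95 for Bmi1, -0.27 for Pcgf2, -0.61 for Ring1 and 0.27 for Rnf2. With the block as well, these were -0.15, 0.84, 0.94, -0.27, -0.61 and 0.27. For PDGF-BB, where Pcgf2 was at 0.00, it was at 0.066 without the filter, 0.0088 with only the 2 groups, 0.076 without chromosomes X, Y and MT, and -0.015 to 0.098 with 1 library left out. Shares with the trend removed, added after seeing the data, differed by -1.99 points for Pcgf2 and 3.82 for Pcgf5 after EZH2 inhibition, and for both together by -12.4 for Ring1, 12.4 for Rnf2, 15.2 for Bmi1 and -20.4 for Pcgf2. The order of the genes per kilobase with the trend removed was likewise added. The median of genes within 2 Mb, also added after seeing the data, was 0.25 for Bmi1 and -0.018 for Phc1 in both together and 0.35 for Pcgf5 in PDGF-BB. Of the other medians, which kept their sign, 19 moved by at least the SD among libraries of the first group and 5 moved less. For PDGF-BB the 2 Mb median was 1.07 around Cbx2 and around Cbx8. Cbx2 was above 39.6% of those neighbours and Cbx8 above 22.0%.

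Rnf2 was called for PDGF-BB without the filter (0.32), with only the 2 groups (0.27), without chromosomes X, Y and MT (0.33) and with the block (0.26). Ring1 in both together was not called with upper-quartile scaling, without the filter or with DESeq2, and Bmi1 in both together was called without BB-p53n EZH2i replicate 1 (-0.54, adjusted p = 0.0381). Groups of 3 libraries, whose independence is not stated, limit every test.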
